A study of Homo sapiens with 4 samples.

Results

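The replication-dependent histone genes of the human genome lie in a few dense clusters, HIST1 on chromosome 6 and HIST2 and HIST3 on chromosome 1. Peaks of TAF3, H3K4me3 and RNA polymerase II (RNAPII) were taken as histone-cluster peaks where they overlapped, by at least 1 bp, any of 5 hg19 segments: chr6 26.01-26.29 Mb, chr6 27.09-27.12 Mb and chr6 27.77-27.87 Mb (the first, the second and the third HIST1 segment), chr1 149.78-149.87 Mb (HIST2) and chr1 228.61-228.66 Mb (HIST3). The segments were set by position and not by signal, but with earlier results of these data known. They held 128 of the 97318 peaks in the 3 full peak lists, namely 42 of 17887 TAF3 peaks, 34 of 17975 H3K4me3 peaks and 52 of 61456 RNAPII peaks, on 550 kb or 0.0204% of the effective genome. All 128 lay wholly inside a segment.

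The series compares 4 chromatin immunoprecipitation sequencing libraries from HCT116, an established human colorectal carcinoma line grown as a monolayer, at passages 15 to 18 with no treatment named. There was 1 library each: with a polyclonal antiserum against residues 290 to 389 of human TAF3, with an antibody to histone H3 trimethylated at lysine 4 (H3K4me3), with an antibody to RNAPII and, as input, with none, all after fixation in 1% formaldehyde. The same input served as control for the other 3 libraries, which held 12560129 to 17411155 tags after duplicate removal, beside 19185386 for input. No library was replicated, so a difference below has no replicate error and no test, and intervals on shares are exact binomial 95% intervals that cover the counting of peaks only.

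Replication-dependent histone genes supply the histones that package newly copied DNA and are transcribed mainly in S phase. They are short, lack introns, and their messages end in a stem-loop in place of a poly(A) tail. Many are arranged as divergent H2A and H2B pairs that share a short stretch of promoter DNA. TAF3 is a subunit of TFIID, the general factor that binds the core promoter, and its PHD finger binds H3K4me3, the histone mark of promoters. No synchronisation of the cells was named, and in bulk chromatin a stronger signal per cell and a larger share of cells that carry it cannot be told apart.

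Promoters are shown first because TFIID reads the core promoter, and those of each histone class carry different short motifs. RefSeq names 67 histone genes in the 5 matching groups of GRCh38.p14: 32, 5 and 16 in the 3 HIST1 groups (H1-1 to H4C8, H2BC11 to H2AC12 and H2BC13 to H2BC17), 11 in HIST2 (H2BC18 to H2AC21) and 3 in HIST3 (H3-4, H2AC25 and H2BC26). Of these, 62 genes matched 66 promoters, each 250 bases before to 50 after the annotated start. For every class, a promoter with the most kinds of motif is printed below as the 200 bases before its start. Ties were settled by the order of the symbols, so that H3C13 stands for 3 H3 genes with as many kinds and H4C11 for 6 H4 genes. Capitals mark matches, on either strand, of 5 motifs. These are TATAAA, the core promoter box that TFIID binds, the CCAAT box, ATTTGCAT (the octamer, bound by the factor Oct-1), AAACACAA (known from H1 genes) and the GC box GGGCGG. The linker histone gene H1-4 is at chr6:26156129-26156328 on the plus strand, H2AC20 at chr1:149886718-149886917 on the plus strand, H2BC21 at chr1:149886683-149886882 on the minus strand, H3C13 at chr1:149813694-149813893 on the minus strand and H4C11 at chr6:27823892-27824091 on the plus strand. These positions are GRCh38 and cannot be set against the hg19 peaks, and no peak was assigned to a gene.
H1-4: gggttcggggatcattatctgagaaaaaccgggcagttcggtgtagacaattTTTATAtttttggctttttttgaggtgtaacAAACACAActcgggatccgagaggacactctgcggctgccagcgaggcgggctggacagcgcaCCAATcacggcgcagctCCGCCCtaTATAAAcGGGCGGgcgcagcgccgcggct
H2AC20: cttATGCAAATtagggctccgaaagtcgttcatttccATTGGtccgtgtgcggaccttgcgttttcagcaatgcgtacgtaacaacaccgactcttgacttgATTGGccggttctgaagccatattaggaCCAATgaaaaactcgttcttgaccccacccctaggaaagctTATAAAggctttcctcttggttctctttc
H2BC21: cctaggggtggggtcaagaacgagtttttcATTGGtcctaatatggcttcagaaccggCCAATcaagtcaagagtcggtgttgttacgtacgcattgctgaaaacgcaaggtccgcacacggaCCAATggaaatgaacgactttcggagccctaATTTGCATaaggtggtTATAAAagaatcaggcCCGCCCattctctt
H3C13: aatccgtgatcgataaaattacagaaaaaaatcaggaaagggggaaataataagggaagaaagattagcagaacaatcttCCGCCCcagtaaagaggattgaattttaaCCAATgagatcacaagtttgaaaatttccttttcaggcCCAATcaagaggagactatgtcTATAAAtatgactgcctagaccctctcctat
H4C11: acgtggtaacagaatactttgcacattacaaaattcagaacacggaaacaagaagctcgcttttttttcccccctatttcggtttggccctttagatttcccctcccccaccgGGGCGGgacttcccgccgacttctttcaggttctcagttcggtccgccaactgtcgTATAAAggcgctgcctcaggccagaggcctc

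H2AC20 and H2BC21 are a divergent pair, and their windows are largely the same DNA read from opposite strands. In H2AC20 the octamer is far from the start, and in H2BC21 the same octamer stands a few bases before the core promoter box. TATAAA occurred in 43 of 66 histone promoters (65.2%), compared with 11.5% of all 35114 promoters in the table. On the sense strand 45 to 15 bases before the start it was present in 36 histone promoters (54.5%) and in 2.45% of all. CCAAT was present in 57 of 66 (86.4%, compared with 34.6% of all). It was in every H1, H2A, H2B and H3 promoter examined and in 3 of 12 H4 promoters. The octamer was present in 10 of 15 H2A, 14 of 19 H2B and 1 of 14 H3 promoters, in none of the H1 and H4 promoters, and in 1.77% of all. AAACACAA occurred in 4 of 6 H1 promoters and in no other histone class, compared with 1.55% of all. GGGCGG was the motif that the 66 histone promoters held less often than the table as a whole (25.8%, compared with 44.95%). By class, its share was below that of the table in H2A (1 of 15), H2B (1 of 19) and H3 promoters (4 of 14). In H1 (4 of 6, 66.7%) and H4 promoters (7 of 12, 58.3%) its share was above that of the table. Shares use the whole window, so some matches fall outside the printed bases, and matches of different motifs overlapped in 2 places. The 66 promoters are not independent. A divergent pair can count the same match for both genes, and some genes enter with several promoters. A match is a description of letters and does not show binding.

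RNAPII peaks in the histone clusters were stronger than most RNAPII peaks of the genome. Their median fold enrichment over the local background was 63.5 (range 6.24 to 301, n = 52), compared with 12.0 over the whole list, which reached 313. The median histone-cluster RNAPII peak exceeded 82.9% of its list. Part of that list is of another kind: 67.6% of it lay on neither other signal, compared with 30.8% of the histone-cluster RNAPII peaks. The gap was smaller at TAF3 peaks that overlapped both other signals. There the strongest overlapping RNAPII peak had a median fold of 156 in the clusters (n = 42), compared with 94.8 outside the segments. TAF3 was moderately higher, with a median of 38.3 (7.75 to 134, n = 42), compared with 24.4, and its median peak exceeded 69.7% of the list. H3K4me3 was not higher, with a median of 92.7 (7.59 to 156, n = 34), compared with 103.5, and its median peak exceeded 45.6% of the list. The RNAPII folds were widely spread, with quartiles at 13.1 and 171.

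**Figure D1:**
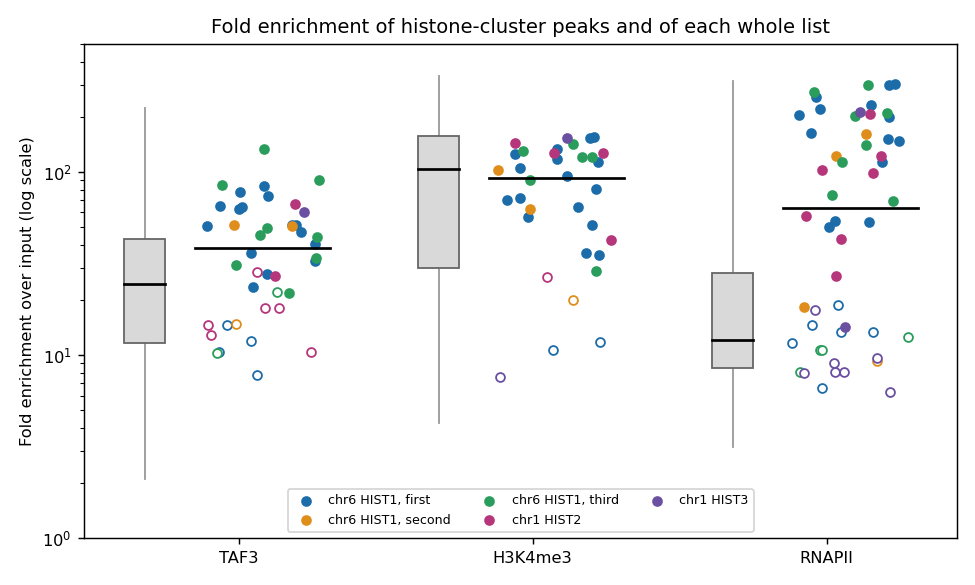
Fold enrichment over input of each histone-cluster peak (points, log axis), by antibody and coloured by segment. Filled points are kept in the authors' filtered list and open points are not. Black bars across points are their medians (38.3, 92.7 and 63.5), and the grey box, black bar and line at left give the quartiles, median and range of the whole list.

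The authors also deposited filtered lists, in which fold enrichment is above 5 throughout and the false discovery rate under 5%. They kept 34 of 52 histone-cluster RNAPII peaks (65.4%, interval 50.9 to 78.0%), compared with 40.7% of the whole RNAPII list. For TAF3 they kept 29 of 42 (69.0%, 52.9 to 82.4%), compared with 65.8%, and for H3K4me3 29 of 34 (85.3%, 68.9 to 95.05%), compared with 79.5%. The TAF3 and H3K4me3 intervals hold the share of their whole lists, and the RNAPII interval lies above it. The kept RNAPII peaks had a median fold of 144, compared with 44.8 for the filtered list, and 16 of 34 were at or above its 90th percentile. Their median of 898.5 tags and width of 2931 bp compare with 223 tags and 1623 bp. Among kept TAF3 peaks the median fold was 50.8, compared with 36.1, and 6 of 29 reached the 90th percentile. Among kept H3K4me3 peaks it was 104.6, compared with 126.1, and none of 29 did.

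The top of the RNAPII list was rich in histone-cluster peaks, which held ranks 4, 6, 8, 34 and 75 of 61456 by fold enrichment. The peak at rank 4, chr6:26054204-26057609, had 301-fold enrichment and 2091 tags, and that at rank 6, chr6:26031385-26034822, had 299-fold enrichment and 1724 tags. Both were in the first HIST1 segment. The peak at rank 8, chr6:27774630-27779565 in the third HIST1 segment, had 298-fold enrichment and 1697 tags. In all, 13 of the 1000 strongest RNAPII peaks were histone-cluster peaks, while these make up 0.846 per 1000 of the whole list. For TAF3 the count was 4 of 1000, beside 2.35 per 1000 of the list, and for H3K4me3 it was 0, beside 1.89. The counts for TAF3 and H3K4me3 are too small to set apart from their lists. By tags the RNAPII peak chr6:26155491-26160680 was the largest of the clusters with 3515, or 0.677 per bp.

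Every TAF3 peak of the clusters lay on both other signals. All 42 overlapped an H3K4me3 peak (lower limit of the interval 91.6%), compared with 86.6% of the whole TAF3 list, and all 42 overlapped an RNAPII peak, compared with 97.4%. Both together were overlapped by 42 of 42, compared with 86%. Among TAF3 peaks kept by the filter the difference was nearly absent, with 29 of 29 on both, compared with 99.1% of those kept outside the segments. In the other direction, 32 of 34 H3K4me3 peaks overlapped TAF3 (94.1%, compared with 82.8%) and 34 of 34 overlapped RNAPII (compared with 93.4%). Of the kept H3K4me3 peaks, 29 of 29 overlapped each full list. Among those kept outside the segments the shares were 94.3% for TAF3 and 98.5% for RNAPII. On the filtered lists 25 of 29 overlapped TAF3 (86.2%) and 29 of 29 overlapped RNAPII. For that setting the share over the whole H3K4me3 list was not computed. RNAPII peaks differed most from their list: 32 of 52 overlapped TAF3 (61.5%, interval 47.0 to 74.7%, compared with 27.2%) and 36 of 52 overlapped H3K4me3 (69.2%, 54.9 to 81.3%, compared with 29.4%). Of the RNAPII peaks kept by the filter, 32 of 34 lay on a TAF3 peak of the full list, compared with 61.7% of all kept RNAPII peaks, and 33 of 34 lay on H3K4me3 of the full list, compared with 60.3%. With the filter applied to the other list too, 24 of 34 lay on TAF3 (70.6%, compared with 46.2%) and 31 of 34 on H3K4me3 (91.2%, compared with 54.6%).

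Merging overlapping peaks of the 3 antibodies gave 47 sites. At 29 of them all 3 were present, with median best folds of 50.8 for TAF3, 104.6 for H3K4me3 and 161 for RNAPII. These sites numbered 14 in the first, 3 in the second and 6 in the third HIST1 segment, 5 in HIST2 and 1 in HIST3. A further 16 sites held RNAPII alone and 2 held H3K4me3 and RNAPII without TAF3, and no site held TAF3 or H3K4me3 alone. The map of the segments shows the sites with all 3 antibodies as stacked blocks, with RNAPII often the widest, separated by stretches with none.

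**Figure D2:**
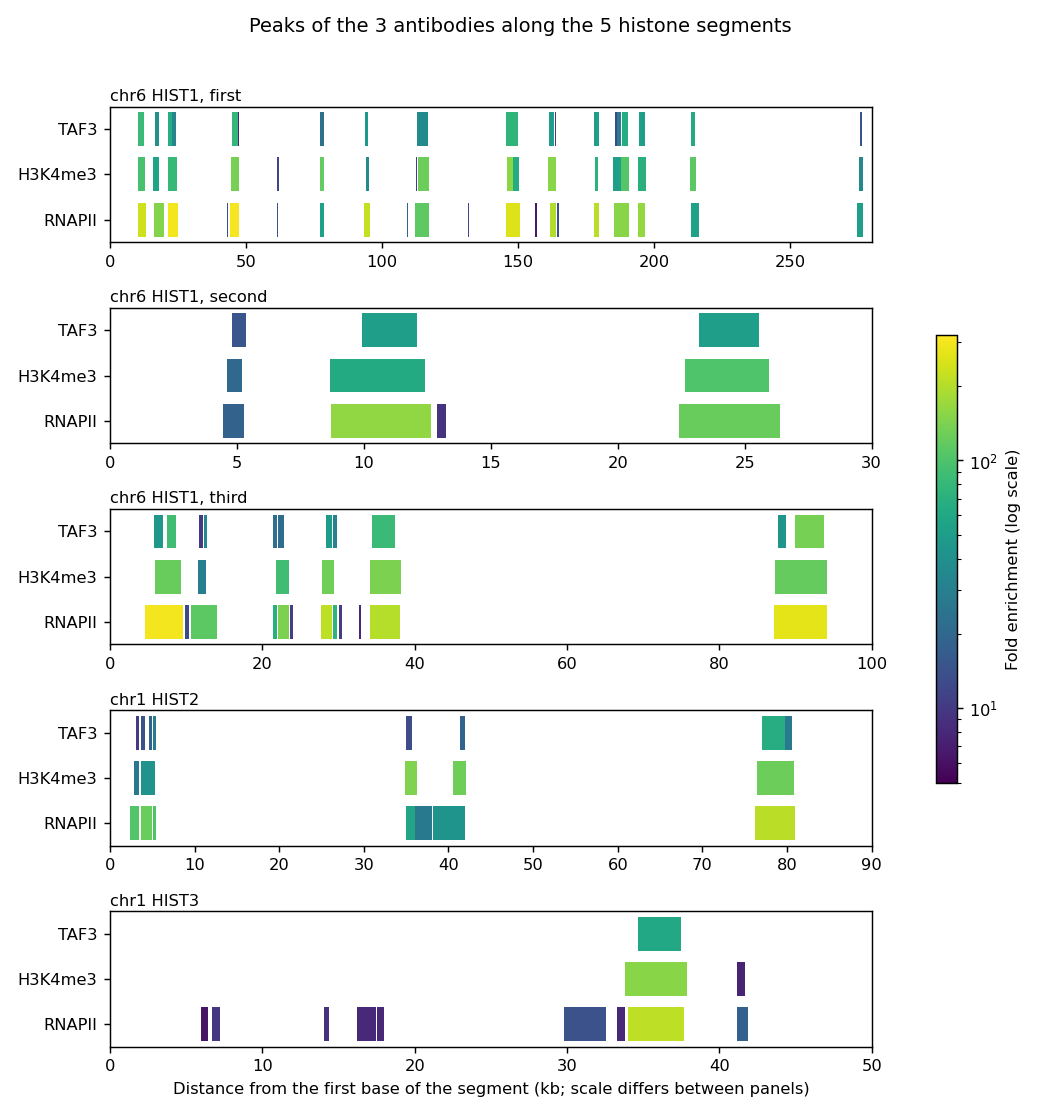
Peaks of TAF3, H3K4me3 and RNAPII along each of the 5 segments, 1 row per antibody, with position in kb from the first base of the segment and colour giving fold enrichment on a log scale. Very narrow peaks are drawn slightly wider than they are so that they can be seen. The strong blocks stand above each other in all 3 rows, and HIST3 has 1 such block of its 8 sites.

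The 10 strongest TAF3 peaks lay in 3 of the 5 segments, the first and the third of HIST1 and HIST2. At chr6:27859970-27863720, near the far end of the third HIST1 segment, TAF3 had 134-fold enrichment and 657 tags, and lay in H3K4me3 of 120-fold and 1450 tags and RNAPII of 272-fold and 3121 tags. This was the only histone-cluster peak among the 100 strongest TAF3 peaks. The second TAF3 peak, chr6:27777552-27778626 in the same segment, had 90.1-fold enrichment, beside 121-fold for H3K4me3 and 298-fold for RNAPII. It was followed there by chr6:27804372-27807480 with 84.4-fold for TAF3, 142-fold for H3K4me3 and 202-fold for RNAPII.

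In the first HIST1 segment, chr6:26020352-26022428 was the strongest TAF3 peak with 83.9-fold enrichment, beside 95.2-fold for H3K4me3 and 233-fold for RNAPII. The TAF3 peak at chr6:26054834-26057052 had 77.5-fold enrichment, 134-fold for H3K4me3 and the highest RNAPII fold of the clusters. The TAF3 peak at chr6:26155714-26159812 was the widest of its kind in the clusters, at 4099 bp. It had 74.3-fold enrichment and 687 tags, and overlapped H3K4me3 of 156-fold, the highest of the clusters, and RNAPII of 258-fold. That H3K4me3 peak ended at 26158159, before the TAF3 summit at 26158418. The TAF3 summit lay in another H3K4me3 peak, chr6:26158229-26160317, of 64.4-fold. The RNAPII summit was 1794 bp from the TAF3 summit. At chr6:26031426-26032669 TAF3 had 65.4-fold enrichment beside 80.6-fold for H3K4me3, and at chr6:26198118-26200261 it had 64.4-fold enrichment beside 105-fold. RNAPII at these sites was 299-fold and 152-fold. The last of the 10 strongest TAF3 peaks differed in its balance: chr6:26223718-26225108 had 62.6-fold TAF3 and 113-fold H3K4me3 but 54.1-fold RNAPII.

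The clusters on chromosome 1 reached similar TAF3 levels at a single site each. In HIST2, chr1:149857040-149859728 had 66.7-fold TAF3 enrichment, beside 127-fold for H3K4me3 and 208-fold for RNAPII. The strongest H3K4me3 peak of HIST2 was elsewhere, at chr1:149814919-149816325 with 143-fold enrichment, where TAF3 was 12.9-fold. In HIST3, chr1:228644647-228647486 had 60.6-fold TAF3, beside 153-fold for H3K4me3 and 213-fold for RNAPII. In the second HIST1 segment the strongest TAF3 peak, chr6:27099920-27102099, had 51.0-fold enrichment beside 62.9-fold for H3K4me3 and 161-fold for RNAPII. The strongest H3K4me3 peak there, chr6:27112642-27115968, had 103-fold enrichment. The filter kept 2 of 8 TAF3 peaks in HIST2, compared with 15 of 19, 2 of 3 and 9 of 11 in the HIST1 segments and 1 of 1 in HIST3.

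The balance of the 3 signals in the clusters differed from that at other TAF3 peaks, with much RNAPII for the amount of H3K4me3. Each TAF3 peak was paired with the strongest peak, by fold, that it overlapped in either other list, which was possible for 42 in the clusters and 15348 elsewhere. Since each antibody has its own scale, a ratio of folds has no absolute meaning, and it was read as a percentile among all such TAF3 peaks. The median ratio of RNAPII to H3K4me3 was 2.24 in the clusters and 0.810 elsewhere, and the median percentile was 92.7. Of the 42, 36 were at or above the 50th percentile and 22 at or above the 90th. The RNAPII fold exceeded the H3K4me3 fold at 34 of 42 (81.0%), compared with 32.5% of all such TAF3 peaks. These 42 TAF3 peaks share 32 RNAPII peaks and 30 H3K4me3 peaks, so their ratios are not independent. Fold is a summit value, and partner summits lay up to 2373 bp (RNAPII) and 3180 bp (H3K4me3) from the TAF3 summit. A ratio can therefore join signals from separate places, and a limit on summit distance was not tested. The comparison of RNAPII with H3K4me3 was added after the values were seen.

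**Figure D3:**
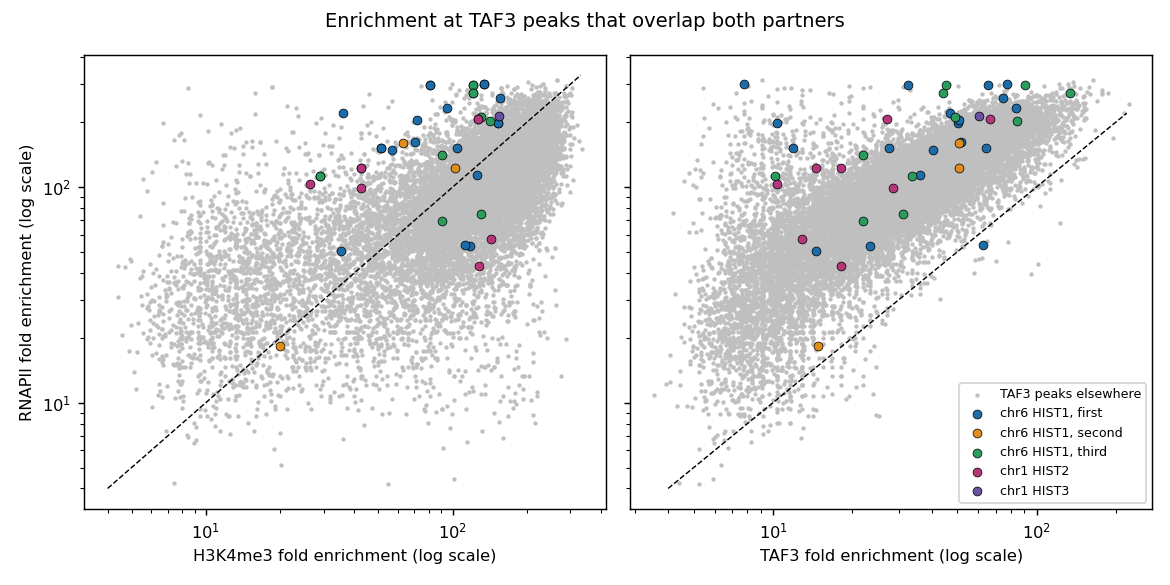
RNAPII fold enrichment against H3K4me3 fold enrichment (left) and TAF3 fold enrichment (right), all on log axes, at TAF3 peaks that overlap both partners. Grey points are 15348 peaks elsewhere, coloured points are the 42 histone-cluster peaks, and the dashed line marks equal folds. At left, 34 of the 42 stand above the line.

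Set against TAF3 itself, H3K4me3 was low and RNAPII somewhat high. The median ratio of H3K4me3 to TAF3 was 2.38 in the clusters and 3.67 elsewhere, a median percentile of 23.2. The median ratio of RNAPII to TAF3 was 3.59 and 3.01, a median percentile of 66.9. The spread of the latter was wide, from percentile 0.429 to 99.98. With the filtered lists (n = 29) the H3K4me3 to TAF3 ratio stood at a median percentile of 8.92 and the RNAPII to H3K4me3 ratio at 97.9. By segment, the latter had median percentiles in the filtered lists of 98.1, 92.0 and 97.9 in HIST1, 94.8 in HIST2 and 91.3 in HIST3, where the numbers of TAF3 peaks were 15, 2, 9, 2 and 1. The HIST2 pair shares 1 RNAPII and 1 H3K4me3 peak and is a single ratio. In the full lists the medians were less even, at 92.7, 78.2 and 92.8 in HIST1, 90.6 in HIST2 and 84.0 in HIST3, and the lowest HIST2 value was at percentile 4.60.

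**Figure D4:**
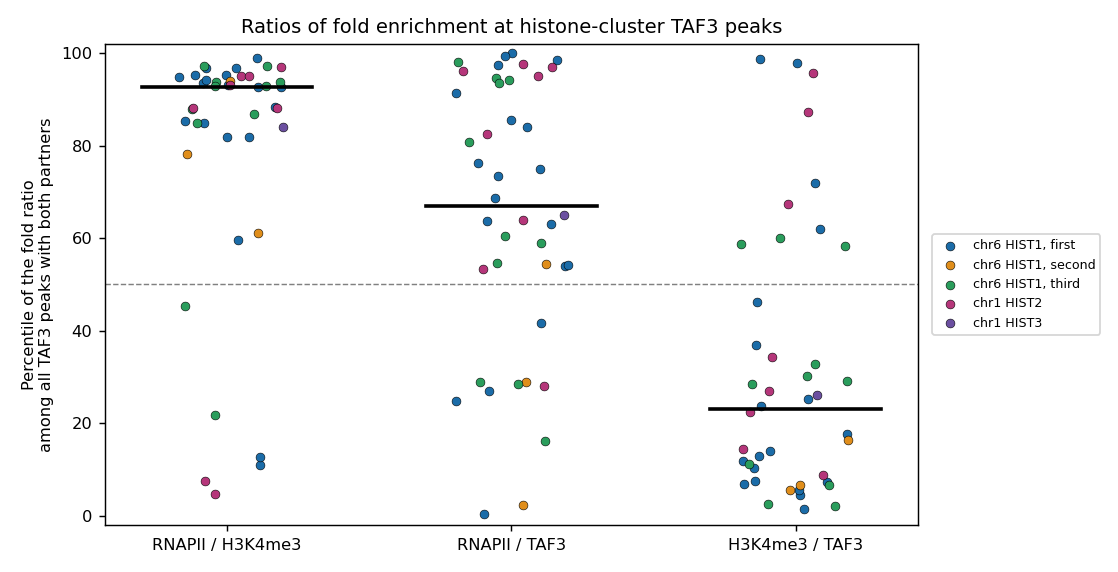
Percentile of 3 fold ratios at each of the 42 histone-cluster TAF3 peaks among all TAF3 peaks with both partners, coloured by segment, with black bars for the medians (92.7, 66.9 and 23.2) and a dashed line at the 50th percentile. Points crowd the top for RNAPII over H3K4me3, with 6 below the dashed line.

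The extreme of this balance was chr6:26103819-26104992 in the first HIST1 segment. TAF3 had 46.8-fold enrichment there, H3K4me3 35.8-fold and RNAPII 220-fold, a ratio of RNAPII to H3K4me3 of 6.15 at percentile 99.0. The 6 TAF3 peaks below the 50th percentile were likewise identified from their values. In HIST2 they were chr1:149821314-149821945 (H3K4me3 127-fold, RNAPII 43.2-fold) and chr1:149814984-149815697 (143-fold and 57.5-fold). In the first HIST1 segment they were chr6:26087306-26088581 (117-fold and 53.5-fold) and chr6:26223718-26225108, described above. In the third HIST1 segment they were chr6:27799225-27799744 (130-fold and 74.8-fold) and chr6:27791385-27791984 (90.1-fold and 69.5-fold). No peak was assigned to a gene, so whether these 6 lie at histone genes was not analysed here.

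The ranks of the 3 folds were less alike within the clusters than across other TAF3 peaks, over 42 peaks that share partners. Spearman's rho between TAF3 and RNAPII folds was 0.52 over the 42 and 0.78 over the 15348 elsewhere. It was 0.33 and 0.68 between TAF3 and H3K4me3, and 0.38 and 0.67 between RNAPII and H3K4me3. The 3 folds share 1 input library, and these values are descriptions with no test.

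RNAPII extended further around TAF3 in the clusters than elsewhere. The RNAPII peak paired with a TAF3 peak had a median width of 3388 bp, compared with 1634 bp elsewhere. The paired H3K4me3 peak was 2634 and 2268 bp wide, and the TAF3 peak 1195 and 1361 bp. A partner of several TAF3 peaks counts more than once in these medians, and more so in the clusters. The 42 share 32 RNAPII and 30 H3K4me3 peaks, and the 15348 elsewhere have 14365 and 14309. TAF3 lay wholly inside its RNAPII peak at 37 of 42 (88.1%), compared with 47.9% of all TAF3 peaks with both partners, and wholly inside its H3K4me3 peak at 29 of 42 (69.0%), compared with 79.3%. The widest RNAPII peak of the clusters, chr6:27857136-27864108, spanned 6973 bp, and the widest H3K4me3 peak, chr6:27857250-27864108, spanned 6859 bp at the same place. Summits of TAF3 and RNAPII were a median of 56.5 bp apart, compared with 50 bp elsewhere, and were within 100 bp at 24 of 42 (57.1%), compared with 64.2% of all TAF3 peaks with both partners. Summits of TAF3 and H3K4me3 were a median of 306.5 bp apart, compared with 218 bp.

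Several TAF3 peaks often lay on a single peak of another antibody. Of the histone-cluster H3K4me3 peaks, 11 of 34 (32.4%) overlapped 2 or more TAF3 peaks, compared with 5.83% of the whole list, and of the RNAPII peaks 9 of 52 (17.3%) did, compared with 1.78%. The most on a single peak was 3. Of the 29 sites with all 3 antibodies, 11 held 2 or more TAF3 peaks. Some of the 11 did so only through TAF3 peaks that the filter left out. Such peaks were chr6:26057061-26057456 (7.75-fold, 12 tags) and chr6:26173618-26173933 (10.3-fold, 10 tags). An example with both TAF3 peaks kept is the RNAPII peak at chr6:27857136-27864108, which covers TAF3 peaks of 134-fold and 44.3-fold.

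Some TAF3 peaks were split by a narrow gap that RNAPII shared. A gap of at most 200 bp to the next peak of the list followed 6 of 42 TAF3 peaks (14.3%), compared with 5.58% outside the segments. At 3 of these 6 gaps an RNAPII gap had both edges within 5 bp of the TAF3 edges, compared with 1.1% of all 1001 narrow TAF3 gaps. In HIST2 the gap lay between positions 149784971 and 149785134 for TAF3 and between 149784972 and 149785133 for RNAPII on chromosome 1. In the third HIST1 segment, on chromosome 6, both lists had a gap between 27791984 and 27792115. The other lay between 27799094 and 27799225 for TAF3 and between 27799095 and 27799224 for RNAPII. The filter kept the TAF3 peaks on both sides of this last gap only. It left out both TAF3 peaks beside the HIST2 gap (17 and 25 tags). It also left out chr6:27791385-27791984 (36 tags), which ends at the gap from 27791984. The RNAPII peaks beside these gaps were all kept. The gaps were 128 to 162 bp long, and they were looked for after the values were seen.

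HIST2 and the third HIST1 group were also those in which RefSeq promoters repeat each other. A run of 36 bases, the read length, was shared with another, non-overlapping promoter of the table in 7 of 11 HIST2 promoters and 6 of 14 promoters of the third HIST1 group, and in none of the other 41. The promoters of H4C14 and H4C15 shared all 265 of their runs, H2AC18 and H2AC19 shared 264, H3C14 and H3C15 shared 261, and H4C11 and H4C12 shared 144. H3C13, printed above, shared 121 with H3-7, an H3 gene outside the 11. How reads with several matching places were treated is not given in the sources used here, and the part of repeated sequence in the gaps and in the HIST2 values was not tested.

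The 16 sites with RNAPII alone were about as weak as RNAPII peaks alone elsewhere. Fold enrichment there was 6.24 to 18.7 with a median of 10.2, compared with 9.54 outside the segments. The filtered RNAPII list left out 15 of the 16 (interval 69.8 to 99.8%), compared with 79.3% of all RNAPII peaks on neither other signal. The exception was chr1:228639804-228642581 in HIST3, with 14.2-fold enrichment and 183 tags over 2778 bp. RNAPII peaks on neither other signal made up 30.8% of the histone-cluster RNAPII peaks, compared with 67.6% of the list. HIST3 held 6 of these sites, the first and the third HIST1 segment 5 and 4, the second 1 and HIST2 none. The 2 H3K4me3 peaks without TAF3 were also weak. The peak at chr6:26071546-26071979 was 11.8-fold enriched and overlapped RNAPII of 14.6-fold. The peak at chr1:228651179-228651681 was 7.59-fold enriched and overlapped RNAPII of 17.6-fold.

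Tags in peaks were dense in the segments. Scaled to 1000000 library tags and to 100 kb, RNAPII peaks held 408 tags, which was 19.0 times the mean over the effective genome, TAF3 peaks 81.8, which was 13.7 times, and H3K4me3 peaks 227, which was 7.47 times. In flanks of the same length on each side the values were 51.9, 11.5 and 70.7. Peaks covered 19.4% of the bases of the segments for RNAPII, 10.8% for TAF3 and 14.5% for H3K4me3, compared with 7.63, 2.44 and 5.12% of the flanks. Per covered kb, RNAPII peaks held 355 tags, compared with 123 over the whole list, TAF3 peaks 132, compared with 118, and H3K4me3 peaks 196, compared with 289. HIST3 was the exception beside its flanks, where RNAPII had 206 tags and the flanks 247, H3K4me3 181 and 268, and TAF3 48.9 and 43.2.

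**Figure D5:**
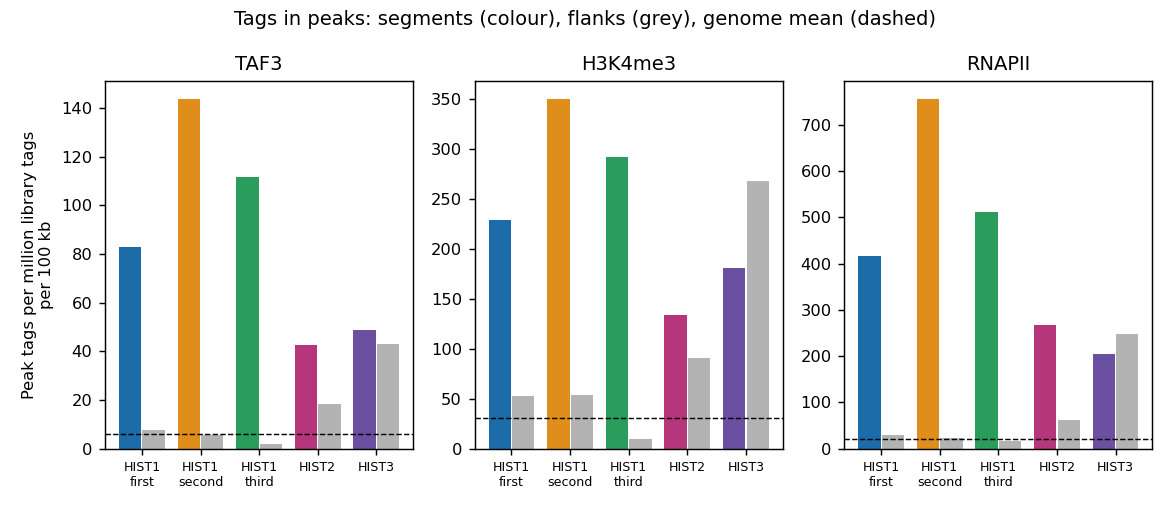
Tags in peaks, scaled to 1000000 library tags and to 100 kb, for each segment (coloured bars) and for its flanks of the same length on each side (grey bars), with the mean over the effective genome as a dashed line. Segments exceed their flanks in all panels except HIST3 for H3K4me3 and RNAPII.

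The second HIST1 segment, the shortest at 30 kb, was the densest for all 3 antibodies, with 756 RNAPII, 351 H3K4me3 and 144 TAF3 tags on that scale. The lists analysed here hold no peak on the longest stretch of the first HIST1 segment, chr6:26226577-26284660 (58.1 kb), nor on chr6:27808234-27857135 (48.9 kb) of the third HIST1 segment. In HIST2 the same held for chr1:149822028-149856168 (34.1 kb) and chr1:149785480-149814918 (29.4 kb). HIST2 and the third HIST1 group hold promoters that repeat each other, and how reads with several matching places were treated is not given. A lack of peaks there does not show a lack of signal, and the part of repeated sequence was not tested. At the limits of the segments, the last RNAPII peak inside the third HIST1 segment was 272-fold enriched and the first beyond it, chr6:27870065-27871111 at 0.065 kb, was 28.1-fold. Beyond HIST2 the nearest TAF3 peak, at 0.776 kb, had 28.3-fold enrichment beside 27.1-fold for the last TAF3 peak inside, and the nearest H3K4me3 peak, at 0.792 kb, had 118-fold beside 127-fold.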

How the data were processed

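Per the submitters' processing notes, the authors used CASAVA 1.8.2, MACS 1.4.2 and hg19. How reads were aligned is not given in the sources used here. The same input was the control in all 3 peak calls, per the file headers, with 1 tag kept per position, a p cutoff of 1e-05 and local background windows of 1000 and 10000 bp. Keeping 1 tag per position bounds the count that a dense peak can reach. After that step 17411155 TAF3, 12560129 H3K4me3 and 16841238 RNAPII tags remained. In the deposited lists the tag count is whole and unscaled. Fold enrichment, as deposited, is a ratio of summit tags to the local background, the deposited score is a scaled −log10 of the p-value (scores were not used), and the false discovery rate, as deposited, is a percent. All are the authors' values.

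Groups follow the sample titles. Computed here were overlaps of at least 1 bp, percentiles (the percent of a list with a lower value), merged sites, densities, summit distances and exact binomial 95% intervals. Fold ratios used the overlapping partner of highest fold enrichment. Named peaks are, by rule, the strongest of each antibody in each segment, the 10 strongest TAF3 peaks with their partners, peaks lacking a partner and the widest of each list; others were named after their values were seen. The segments, lists and tests were chosen with earlier results of these data known. The RNAPII to H3K4me3 ratio, the narrow gaps, the sense TATAAA window and the printed promoter length were chosen after values were seen. Promoters are RefSeq GRCh38.p14 and no coordinates were converted.

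Alternatives were the filtered lists, other overlap rules, the part of each list above its median by fold enrichment, tags per bp and leaving out a segment. Software was matplotlib 3.10.9, scipy 1.17.1, pandas 2.3.3 and numpy 2.4.6 on Python 3.11.15. Overlaps were tested on simulated data (4 of 4 checks passed) and equalled bedtools 2.31.1 for 6 of 6 list pairs. The input library was used only through the authors' calls.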

Additional observations from a re-analysis of the deposited data

How the results depend on the processing

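Of 85 alternative values, 73 stayed within the counting interval of the reported value or within 1.5 times of a reported count, and 12 did not. Some of the 73 could not move. Every peak lay wholly inside a segment, so asking for the summit or the whole peak inside changed nothing. For medians the interval came from the ranked values and could be wide, as for the RNAPII median fold (18.4 to 123). With the filtered lists the number of RNAPII peaks was 34, their median fold 144, the share of them on H3K4me3 91.2% (31 of 34), the median percentile of the H3K4me3 to TAF3 ratio 8.92 and that of the RNAPII to H3K4me3 ratio 97.9. With only the upper part of each list by fold enrichment, above its median, H3K4me3 peaks on TAF3 were 80% (12 of 15) and RNAPII peaks on H3K4me3 42.5%. TAF3 peaks on H3K4me3 and on both were each 57.1% (16 of 28), while 28 of 28 lay on RNAPII. RNAPII peaks on TAF3 were 57.5%. This setting leaves fewer peaks to overlap. With at least 50% of the peak covered, TAF3 peaks on H3K4me3 and on both were each 90.5%. For neither setting was the same share computed over the whole lists, so whether these shares are low for their list is not known. With tags per bp in place of fold enrichment, the median percentile of the RNAPII to TAF3 ratio was 91.8. The rule of at least 50% covered can only lower a share. The cause of the other changes was not tested. Among alternatives chosen after the data were seen, the RNAPII to H3K4me3 percentile was 92.9 by tags per bp, 88.0 with 1 TAF3 peak per RNAPII peak and 88.1 without the first HIST1 segment. No paired analysis was possible because each antibody has 1 library, and for the same reason no replicate could be left out. Depth limits the weakest peaks, which held as few as 10 tags.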
